A study of Mus musculus with 1 sample.

Results

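The serine/arginine-rich (SR) splicing factors were examined in bone marrow (BM) cells of Ctrl mice sorted for c-kit. The family was taken as 10 genes given by symbol, *Srsf1* to *Srsf7*, *Srsf9*, *Srsf10* and *Srsf11*, and all 10 were found among the 54532 Ensembl genes of the deposited table. The rule is a list of names and sets no minimum level, but it was drawn up with earlier results of these data known, and it leaves out *Srsf12*, described further on at 0.0403 FPKM. The study set out to compare c-kit+ BM cells of heterozygous *Gadd45g*+/- mice with MPN, which lack 1 allele of *Gadd45g* in the hematopoietic system through *Vav-Cre*, with those of Ctrl mice. The data examined here are 1 RNA-seq library of the Ctrl group, labelled wild type, on the C57BL/6 background, sorted as c-kit-positive cells negative for lineage markers and Sca-1. The age, the treatment and the number of mice behind the library are not given in its labels. There are no replicates, so no test between groups was possible, and an interval given below covers counting error only and not the spread between mice.

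SR proteins bind short sequences in exons through RNA recognition motifs (RRMs) and contact other splicing factors through a tail rich in arginine and serine, the RS domain. On a bound exon they help the U1 and U2 small nuclear ribonucleoproteins (snRNPs) to find the splice sites, and several also accompany the spliced mRNA out of the nucleus. Kinases of the SRPK and CLK families phosphorylate the RS domain, and many SR proteins limit their own amount by splicing their pre-mRNA into a form that is destroyed by nonsense-mediated decay. SRSF2 is a recurrent target of mutation in human myeloid neoplasms.

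All 10 SR genes were detected, from 11.6 FPKM for *Srsf4* to 116 FPKM for *Srsf5*, a ratio of 10.1. FPKM is the number of fragments on a gene divided by its length in kilobases and by the depth of the library. Levels of a short and a long gene can be set side by side on this scale. All 10 reached 1 FPKM, which 22.2% of all genes in the table and 46.8% of protein-coding genes did. All 10 also reached 10 FPKM, against 9.37% of all genes and 21.2% of protein-coding genes. Only *Srsf5* reached 100 FPKM, a level found in 0.948% of all genes and 2.06% of protein-coding genes. The median of the family was 52.7 FPKM, beside 1.77 FPKM over all annotated genes above 0 and 4.22 FPKM over the protein-coding genes above 0. Together the 10 genes held 0.129% of the summed FPKM.

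The fragments behind these values could be read from the table, because FPKM times exon length was a whole multiple of a common step, within 0.01, for 96.4% of the genes above 0. Taking the step as 1 fragment, the levels were divided by 15783891 fragments. The recovered fragments summed to 17113323 over all matched genes and to 15899824 over those with whole multiples, both more than this divisor, so the divisor is not the sum of the gene fragments. How the authors set it was not tested, and the depth of the library is known only to about this extent. The recovered fragments ran from 650 on *Srsf4* to 7327 on *Srsf5*, and 38808 fell on the family. *Srsf7* was the only member whose multiple was not whole, at 4305.48 with the annotated exon length, and it was given no interval. Its rounded multiple, only approximate as a count, entered the family sum, the order in recovered fragments and its levels by other lengths. In the order of levels, *Srsf5* was followed by *Srsf2*, *Srsf7*, *Srsf1*, *Srsf6*, *Srsf3*, *Srsf9*, *Srsf10*, *Srsf11* and *Srsf4*. Of the 9 pairs of neighbours in this order, the 7 without *Srsf7* had 95% counting intervals that did not overlap. The closest of all were *Srsf7* and *Srsf1*, with a ratio of 1.12, and the widest step was that from *Srsf9* to *Srsf10*, with a ratio of 1.91. Whether any of these steps exceeds the difference between mice cannot be said from 1 library.

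**Figure D1:**
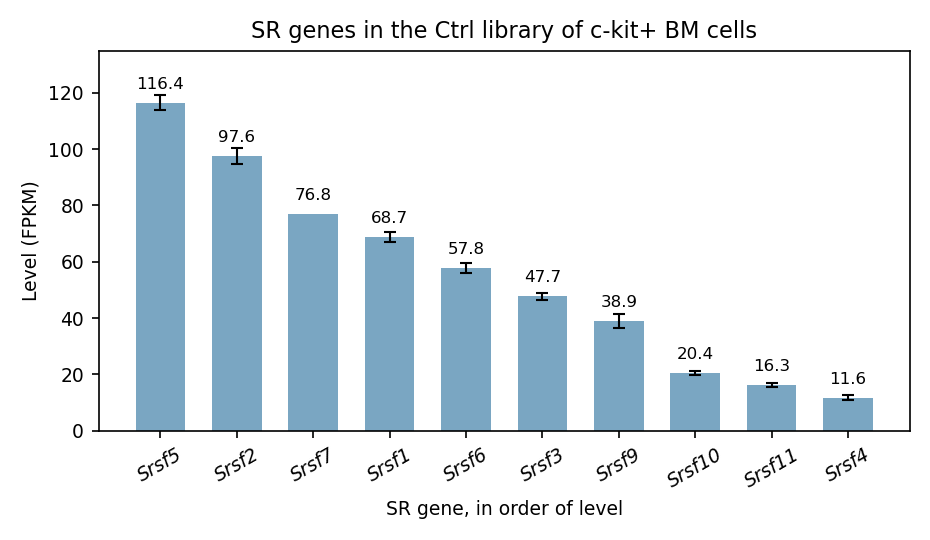
Level of each SR gene in FPKM (y axis) in the Ctrl library, in order of level; bars stand for the single deposited value and error bars for the 95% Wilson interval of counting error, which *Srsf7* lacks. The bars fall from 116 FPKM for *Srsf5* to 11.6 FPKM for *Srsf4*, with the widest relative step between *Srsf9* and *Srsf10*.

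*Srsf4*, *Srsf5* and *Srsf6* encode closely related members with an additional RRM-like domain, and they held both the highest and the lowest level. *Srsf5* (ENSMUSG00000021134, chr12:80945504-80950507 of GRCm38, forward strand) had 116 FPKM from 7327 fragments (95% Wilson interval, 114 to 119). It ranked 447 among the genes of the table, and 97.9% of the genes above 0 were lower. *Srsf6* (ENSMUSG00000016921, chr2:162931528-162937121, forward strand) had 57.8 FPKM from 4385 fragments, with an interval of 56.1 to 59.5. *Srsf4* (ENSMUSG00000028911, chr4:131873617-131901706, forward strand), which encodes the member with the longest RS tail of this trio, had 11.6 FPKM from 650 fragments, with an interval of 10.7 to 12.5. Within this trio of related genes *Srsf5* stood 10.1 times above *Srsf4*, a ratio that was 5.74 by exon bases shared with no other gene and 16.2 by the longest protein-coding transcript. The trio held 33.6% of the family's summed FPKM.

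*Srsf2* (ENSMUSG00000034120, chr11:116849901-116853094, reverse strand) encodes an SR protein that stays in the nucleus. It had 97.6 FPKM from 4559 fragments, with an interval of 94.9 to 101 FPKM, and held 17.7% of the family's summed FPKM. Among the other splicing genes that recur among mutated genes of human myeloid neoplasms, *U2af1*, which recognises the 3′ splice site, had 81.2 FPKM. *Sf3b1*, a core U2 snRNP protein at the branch site, had 42.7 FPKM, and *Zrsr2*, of the minor spliceosome, had 4.34 FPKM. In FPKM *Srsf2* was the highest of these 4 genes, although *U2af1* has no counting interval because its multiple was not whole. In recovered fragments *Sf3b1* was the highest, with 7661.

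*Srsf3* and *Srsf7* encode the small SR proteins that shuttle between nucleus and cytoplasm and act as adapters for mRNA export. SRSF7 differs from SRSF3 by a zinc knuckle behind its RRM. *Srsf7* (ENSMUSG00000024097, chr17:80200080-80207307, reverse strand) had 76.8 FPKM, and *Srsf3* (ENSMUSG00000071172, chr17:29032628-29043373, forward strand) had 47.7 FPKM from 5947 fragments, with an interval of 46.5 to 48.9. Per length *Srsf7* was thus 1.61 times *Srsf3*, whereas the fragments before division by length were fewer on *Srsf7*, about 4305. This count is approximate beyond rounding, since the multiple was not whole with the annotated exon length. Divided by the longest protein-coding transcript the direction turned, with *Srsf3* at 144 FPKM and *Srsf7* at 114 FPKM, and *Srsf3* was also higher with the other coding lengths tried.

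*Srsf1*, the founding member of the family and a regulator of splicing, export and translation, had 68.7 FPKM from 6196 fragments, with an interval of 67.1 to 70.5 (ENSMUSG00000018379, chr11:88047373-88053755, forward strand). Its closest relative *Srsf9* (ENSMUSG00000029538, chr5:115327177-115333080, forward strand), whose product has a short RS tail, had 38.9 FPKM from 1015 fragments, with an interval of 36.6 to 41.4. *Srsf1* was 1.77 times *Srsf9*, or 1.32 times by the longest protein-coding transcript and 5.87 times by the transcript with the longest coding sequence.

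The remaining pair lay low in the order. *Srsf10* (ENSMUSG00000028676, chr4:135855747-135869908, forward strand) encodes a factor that represses splicing when dephosphorylated, as after heat shock, and it had 20.4 FPKM from 2255 fragments, with an interval of 19.6 to 21.3. *Srsf11* (ENSMUSG00000055436, chr3:158010473-158036639, reverse strand), which encodes an SR-related nuclear protein, had 16.3 FPKM from 2169 fragments, with an interval of 15.6 to 17.0. With *Srsf4*, these were the 3 members under 38.9 FPKM, and all 3 were still above 78.2% of the annotated genes above 0. In FPKM all 10 members stood above *Kit*, the gene of the sorted surface receptor. *Kit* had 7.17 FPKM and ranked only 6355 among the genes of the table. The ratios to it ran from 1.61 for *Srsf4* to 16.2 for *Srsf5*. In recovered fragments *Srsf4* (650) was below *Kit* (1008), and *Srsf9* (1015) was close to it.

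The family shared a feature that its choice did not use, in the annotation of its transcripts. GENCODE M21 marks a transcript as a target of nonsense-mediated decay where a stop codon lies well before the last exon junction. Such a transcript was annotated for 9 of the 10 SR genes, all but *Srsf10*. This was so for 20.5% of all protein-coding genes and for 27.8% of the protein-coding genes at 10 FPKM or more. A transcript with a retained intron was annotated for 8 of 10, against 41.6% and 60.8%. The members had a median of 7.5 annotated transcripts, and the protein-coding genes at 10 FPKM or more a median of 5. These counts describe the annotation and not this library, whose single value per gene does not say from which transcript a fragment came.

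In 5 SR genes, *Srsf3*, *Srsf4*, *Srsf7*, *Srsf9* and *Srsf11*, the early stop lay in an exon that no protein-coding transcript of the gene overlaps, often called a poison exon. Such an exon was annotated in 5.28% of all protein-coding genes and in 7.05% of those at 10 FPKM or more. In *Srsf6* the matching exon is also part of a transcript annotated as protein-coding, so it was not counted. The poison exons of the 5 genes are part of the length by which their levels were divided. The part of each exon annotated as coding is printed because it leads to the early stop that marks the transcript in the annotation. It runs from the exon's first base to the early stop codon, which is in capitals, 5′ to 3′ on the strand of the gene, and was read from the GENCODE M21 transcript sequences of GRCm38. Where *Srsf4* has overlapping forms of the exon, the longer is given, and *Srsf11* has a pair of separate exons of this kind.
*Srsf3*, chr17:29039454-29039487: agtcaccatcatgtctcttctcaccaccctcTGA
*Srsf7*, chr17:80205054-80205081: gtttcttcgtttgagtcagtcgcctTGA
*Srsf4*, chr4:131884276-131884390: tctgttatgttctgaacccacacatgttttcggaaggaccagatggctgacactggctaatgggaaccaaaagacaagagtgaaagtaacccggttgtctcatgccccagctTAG
*Srsf9*, chr5:115328347-115328428: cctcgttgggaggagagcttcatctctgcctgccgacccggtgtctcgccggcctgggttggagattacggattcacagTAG
*Srsf11*, chr3:158024209-158024231: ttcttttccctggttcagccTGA
*Srsf11*, chr3:158023310-158023359: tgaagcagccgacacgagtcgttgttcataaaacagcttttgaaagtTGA

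The stop was reached after 25 coding bases of an exon of 460 bases in *Srsf7* and after 31 of an exon of 456 bases in *Srsf3*. It came after 112 of 207 bases in *Srsf4* and after 79 of 358 bases in *Srsf9*. In *Srsf11* it came after 20 of 109 bases and after 47 of 117 bases. The stop codon was TGA in *Srsf3*, *Srsf7* and *Srsf11* and TAG in *Srsf4* and *Srsf9*.

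Exons of this kind and retained introns are among the bases that lengthen the gene as it was counted. How much each class of transcript adds was not computed. *Srsf10*, with no annotated decay or retained intron transcript, still had 16.6% of its exon bases in no protein-coding transcript. Over the 10 members a median of 29.8% of the annotated exon bases lay in no protein-coding transcript, against 4.45% over all protein-coding genes and 15.0% over those at 10 FPKM or more. The share was 66.9% for *Srsf3*, 60.6% for *Srsf11* and 58.5% for *Srsf5*, but 2.66% for *Srsf1*. *Srsf3* thus has 7899 exon bases, of which 2618 are in its only protein-coding transcript, and *Srsf11* has 8446, of which 3325 are in protein-coding transcripts.

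**Figure D2:**
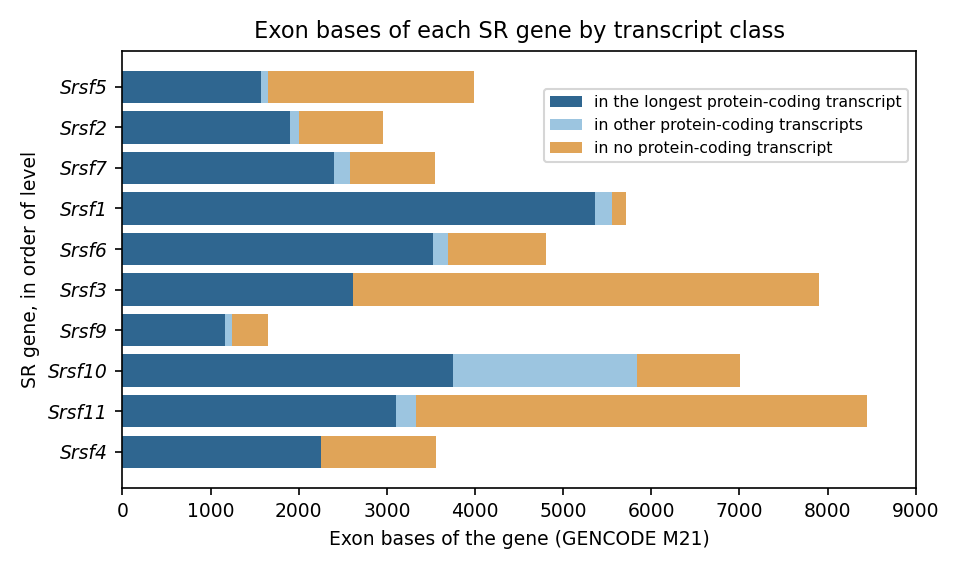
Annotated exon bases of each SR gene (x axis, bases), split into those in the longest protein-coding transcript, those in other protein-coding transcripts and those in no protein-coding transcript. The last class makes up 66.9% of *Srsf3* and 2.66% of *Srsf1*.

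The levels were therefore also computed with other lengths. Divided by the longest protein-coding transcript, which assumes that all fragments came from mature coding mRNA, *Srsf3* rose from 47.7 to 144 FPKM and *Srsf5* from 116 to 296 FPKM. *Srsf11* rose from 16.3 to 44.2 FPKM, while *Srsf1* only went from 68.7 to 73.2 FPKM. *Srsf3* then moved from the sixth to the third place and *Srsf1* from the fourth to the sixth, whereas *Srsf5*, *Srsf2*, *Srsf6*, *Srsf9* and *Srsf4* kept their places. For *Srsf1* the choice of transcript decided the value. Its longest protein-coding transcript has 5362 bases, the one with the longest coding sequence 1209, and with the latter the level was 325 FPKM and the highest of the family. For the transcript chosen, a value of this kind is too high where fragments came from outside it, since these were not removed. It is no upper limit for the gene, as the 2 values of *Srsf1* show. *Srsf4* was the lowest member under each of these lengths and in recovered fragments.

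Genes that overlap an SR gene also bear on its value. On the opposite strand, the noncoding gene *Gm12992* shares 1532 exon bases with *Srsf4*, or 43.0% of its exon bases. *Mettl23* and *Mfsd11* share 748 with *Srsf2*, or 25.3%. *Srsf1* shares 1.72% with *Gm11508*, and the other 7 members share none. The strand setting of the counting is not given in the sources used here, and without strand, fragments in shared bases cannot be assigned to either gene. *Gm12992* had 0.216 FPKM, *Mettl23* 8.62 FPKM, *Mfsd11* 3.08 FPKM and *Gm11508* was listed at 0. If only unshared exon bases had given fragments, *Srsf4* would stand at 20.3 FPKM, above *Srsf11* at 16.3, and *Srsf2* at 131 FPKM, above *Srsf5* at 116. Both ends of the order therefore depend on how shared bases were counted, which was not tested.

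**Figure D3:**
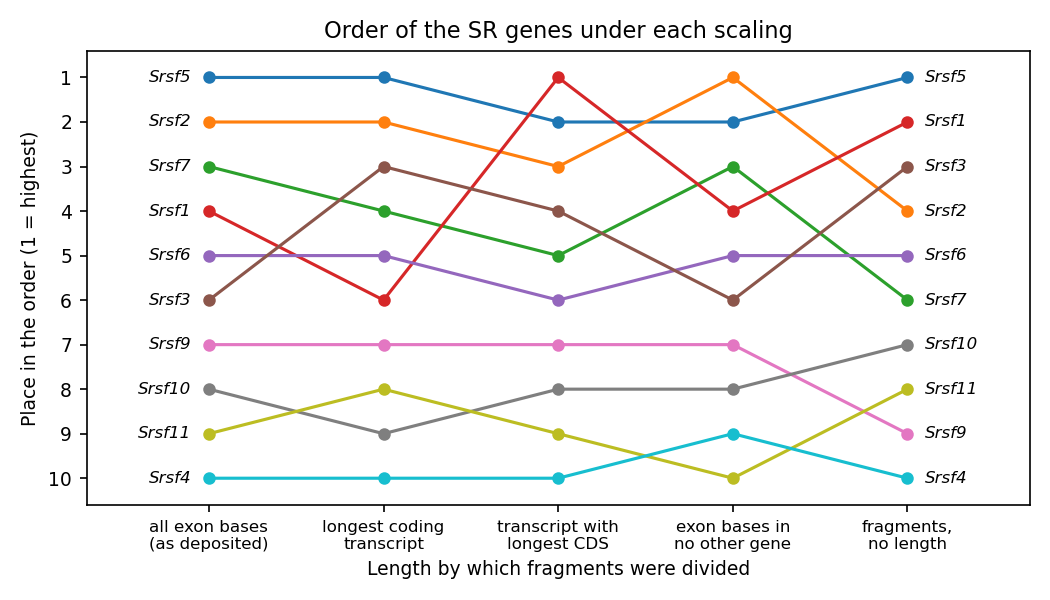
Place of each SR gene in the order of the family (y axis, 1 is the highest) when its fragments were divided by 4 different lengths or by none. *Srsf5* and *Srsf2* lead in 3 of the 5 columns, *Srsf1* ranges from the first to the sixth place, and *Srsf4* is last in 4 of the 5 columns.

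The members were compared with each other by runs of identical bases only, and their identity over the whole length was not computed. Among the 45 pairs of coding sequences, the longest run of identical bases was 19, between *Srsf5* and *Srsf7*. Copies elsewhere in the genome were sought by identity over length. A gene whose transcript matched the coding sequence of a member at 90% identity or more over at least 50% of its length was found for *Srsf3* (5 genes), *Srsf10* (2), *Srsf5* (1) and *Srsf7* (1). The processed pseudogene *Gm12966*, 98.6% identical to *Srsf5*, had 27.5 FPKM from 352 fragments, and *Gm9761*, 99.6% identical to *Srsf3*, had 22.9 FPKM from 178 fragments. How many of these fragments came from the parent genes cannot be told from the table. Added to the parents, the fragments of the copies would raise *Srsf5* from 116 to 122 FPKM and *Srsf3* from 47.7 to 49.2 FPKM, with the same order of the 10 genes.

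The promoters of the top 2 genes and of the lowest gene are printed so that the sequence before the start site can be read for genes at both ends of the deposited order. Whether it bears on the levels was not tested. Each line gives the 250 bases before the RefSeq start site on GRCm38.p6, 5′ to 3′ on the strand of the gene. Capitals mark matches, on either strand, to the GC box (GGGCGG), the CCAAT box (CCAAT), the TATA box (TATAAA), the E-box (CACGTG), an ETS motif (CCGGAAG), an E2F motif (GCGGGAAA) and the CRE (TGACGTCA). Next to the start site of *Srsf5* a GC box and an ETS motif overlap, so that their capitals run together, as do those of GC boxes that overlap in *Srsf2* and that adjoin in *Srsf4*.
*Srsf5*, chr12:80945249-80945498, forward: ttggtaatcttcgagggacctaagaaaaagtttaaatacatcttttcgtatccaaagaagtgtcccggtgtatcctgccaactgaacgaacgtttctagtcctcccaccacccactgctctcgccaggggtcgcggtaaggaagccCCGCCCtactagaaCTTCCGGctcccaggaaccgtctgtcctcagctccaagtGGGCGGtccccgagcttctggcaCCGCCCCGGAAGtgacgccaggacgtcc
*Srsf2*, chr11:116853095-116853344, reverse: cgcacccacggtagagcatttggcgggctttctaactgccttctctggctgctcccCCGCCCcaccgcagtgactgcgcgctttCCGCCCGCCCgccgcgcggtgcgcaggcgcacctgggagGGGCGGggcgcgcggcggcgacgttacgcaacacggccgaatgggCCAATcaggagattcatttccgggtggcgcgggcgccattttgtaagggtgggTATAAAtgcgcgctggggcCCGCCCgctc
*Srsf4*, chr4:131873387-131873636, forward: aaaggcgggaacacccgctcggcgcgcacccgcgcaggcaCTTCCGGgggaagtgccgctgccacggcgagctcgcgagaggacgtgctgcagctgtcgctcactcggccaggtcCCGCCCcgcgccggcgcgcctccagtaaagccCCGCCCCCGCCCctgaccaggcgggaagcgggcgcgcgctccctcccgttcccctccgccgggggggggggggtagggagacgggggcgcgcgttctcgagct

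A GC box was in 9 of the 10 SR promoters, all but that of *Srsf3*, and in 32.9% of all 27025 promoters and 61.6% of those of genes at 10 FPKM or more. The ETS motif was in 4, those of *Srsf5*, *Srsf7*, *Srsf11* and *Srsf4*, against 7.05% and 15.7%. The CCAAT box was in 3, against 34.5% and 37.7%, and the TATA box in 2, *Srsf2* and *Srsf3*, against 13.0% and 6.45%. The E2F motif was in 2, *Srsf1* and *Srsf10*, against 0.929% and 2.15%. The E-box, in 6.05% and 9.34% of promoters, and the CRE, in 1.62% and 2.65%, were in none of these 10 windows. The median GC content was 66.8% in the SR promoters and 52.0% in all promoters. It was not set against the promoters of genes at 10 FPKM or more. Whether this difference is particular to the SR genes was thus not tested. Both the highest and the lowest SR gene have GC boxes and an ETS motif, and a match describes letters and not binding.

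The genes around the SR proteins were read from lists of their pathway. The 12 kinases and import factors had a median of 12.04 FPKM, all 12 reached 1 FPKM, and none reached the SR median. *Clk1*, a nuclear kinase of the RS domain, was the highest at 18.7 FPKM (interval, 18.0 to 19.5), followed by *Clk3* at 17.9 (17.2 to 18.7, an interval that overlaps that of *Clk1*), *Clk4* at 12.2 and *Clk2* at 9.86 FPKM among its relatives. The cytoplasmic kinases *Srpk1* and *Srpk2* had 6.15 FPKM (5.81 to 6.51) and 5.89 FPKM (5.58 to 6.22), intervals that overlap, and *Srpk3*, the lowest, had 4.05 FPKM. *Tnpo3*, which carries phosphorylated SR proteins into the nucleus, had 6.34 FPKM. In FPKM every CLK gene was thus above every SRPK gene, but the recovered fragments on *Srpk1* (1201) and *Srpk2* (1292) exceeded those on *Clk2* (825) and *Clk4* (1116).

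The other SR and SR-related genes were lower than the family as a list. Their median was 17.3 FPKM, 20 of the 21 reached 1 FPKM, and 1 lay above the SR median. This was *Rnps1*, a splicing activator and peripheral part of the exon junction complex, at 56.6 FPKM. *Tra2a* and *Tra2b*, which bind exonic enhancers, had 19.5 FPKM (18.7 to 20.4) and 19.1 FPKM (18.4 to 19.9) and could not be set apart by counting. *Srsf12*, the SR gene most like *Srsf10*, had 0.0403 FPKM from 2 fragments, with an interval of 0.0110 to 0.147 FPKM, and is the exception in a family otherwise above 10 FPKM.

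The heterogeneous nuclear ribonucleoproteins (hnRNPs), which often act against SR proteins at the same exons, were the only splicing list with a median above that of the SR genes. Their median was 60.2 FPKM, all 26 reached 1 FPKM, and 6 of them exceeded *Srsf5*. *Pcbp1*, a poly(C)-binding protein, was the highest at 198 FPKM (193 to 203), and *Ptbp2*, the neuronal relative of *Ptbp1*, the lowest at 1.49 FPKM (1.31 to 1.70). The 26 genes held 0.445% of the summed FPKM.

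Core factors that SR proteins recruit were lower on the median. For splice site recognition and the U2 snRNP, 19 of 20 genes reached 1 FPKM and the median was 21.02 FPKM, led by *Sf3b2* at 110 FPKM, while *U2af1l4* was listed at 0, where 3 fragments would give 0.115 FPKM. The U4/U6.U5 tri-snRNP list had a median of 17.7 FPKM over 13 genes, from *Prpf4* at 6.23 to *Prpf8*, its central scaffold, at 53.9 FPKM. The 8 Sm genes, which form the ring of the snRNPs, had a median of 32.1 FPKM, with *Snrpb* at 91.1 FPKM and *Snrpn* listed at 0, where 3 fragments would give 0.0880 FPKM.

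Downstream of splicing, all 10 genes of nonsense-mediated decay were detected, with a median of 10.3 FPKM. *Upf1*, the helicase of the pathway, had 38.1 FPKM (36.7 to 39.5), its kinase *Smg1* 8.73 FPKM and *Upf3a*, the lowest, 6.18 FPKM. The exon junction complex had a median of 22.4 FPKM over 5 genes, with *Magoh* at 52.1 FPKM (48.2 to 56.3) and its paralog *Magohb* at 4.71 FPKM (3.97 to 5.61). Of the 12 genes of mRNA export, with a median of 12.1 FPKM, *Ddx39b* was the highest at 69.0 FPKM and *Alyref2* the lowest at 1.69 FPKM.

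**Figure D4:**
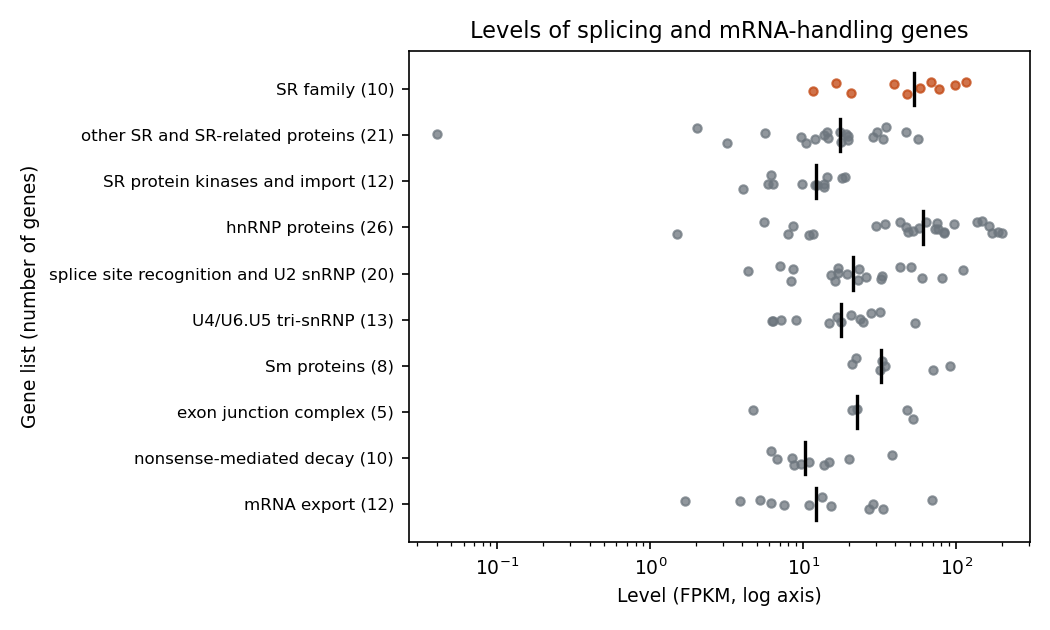
Level of each gene (x axis, FPKM on a log axis) in the SR family and 9 lists of splicing and mRNA-handling genes (number of genes in parentheses); points are genes and black bars are medians, and the 2 genes listed at 0, *U2af1l4* and *Snrpn*, are not drawn. The SR median of 52.7 FPKM lies above all lists but the hnRNP list, at 60.2 FPKM.

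The cells behind these levels were read from marker genes. The granulocyte-macrophage progenitor (GMP) genes ran from *Cebpa* at 38.1 FPKM to *Elane* at 781 FPKM over 6 markers. The 6 markers of megakaryocyte-erythroid progenitors (MEP) ran from *Gfi1b* at 23.9 to *Car1* at 205 FPKM. HSC markers stayed under 1 FPKM in 5 of 5 cases, with *Hlf* the highest at 0.844 FPKM. Genes of mature cells were present in a sort labelled negative for lineage markers. *Kit*, at 7.17 FPKM, was below every mature neutrophil and erythroid gene listed. Mature neutrophil genes (9 markers, *S100a9* the highest at 26677 FPKM) held 12.2% of the summed FPKM and erythroid genes (6 markers, *Hba-a1* the highest at 25466 FPKM) held 11.6%. For B cells the share was 1.56%, with *Igkc* at 4323 FPKM as the leading gene of 6. Macrophage genes held 0.0460%, led by *C1qb* at 50.3 FPKM among 5, and T cell genes 0.00999%, led by *Trac* at 15.5 FPKM among 5. All these shares are of summed FPKM, in which a fragment on a short gene such as *S100a9* (522 exon bases) weighs more. Shares of the recovered fragments were not computed for these lists. No gene of these lists was listed at 0. Their part in the SR levels was not tested, and in 1 bulk library fewer cells with an SR mRNA and less of it per cell cannot be told apart.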

How the data were processed

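The authors extracted total RNA from the c-kit+ sort of Ctrl marrow and sequenced a library made from it on an Illumina HiSeq instrument. The paper does not say how RNA was selected for the library. The deposited values are FPKM, 1 per Ensembl gene. The submitters' processing notes name HISAT2 2.0.5, featureCounts 1.5.0-p3 and mm10. The annotation release and the strand setting are not given in the sources used here. Only this library was analysed here. The coverage of the proteins in the GADD45g immunoprecipitate was not used here.

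Genes were matched to GENCODE M21 (GRCm38) for 54495 of 54532 identifiers. Fragments were recovered as FPKM times exon length over the common step, and 95% Wilson intervals were computed for whole multiples. The recovery was also run on simulated counts that were divided by their own sum. The divisor of these data is not such a sum, so the simulation does not bear on how it was set. The coding sequences were compared with all GENCODE transcripts by BLAST+ 2.17.0. Promoters came from RefSeq, with 10 of 10 members matched. A promoter background has 1 window per gene, and members have the window nearest the start of the transcript with the longest coding sequence.

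No test was made, since there is 1 library. The 10 members and the gene lists were chosen with earlier results of these data known. The text names all members, the highest and the lowest gene of each pathway list, and set genes of SR protein phosphorylation, import, decay and splice site choice. *Kit* and the marker lists were used for the cell types, with the leading gene of a list named. *Gm12966*, *Gm9761* and the overlapping genes were chosen after their values were seen. Calculations ran in Python 3.11.15 (pandas 2.3.3, numpy 2.4.6, scipy 1.17.1), and plots were drawn with matplotlib 3.10.9. The alternatives were other lengths, totals, backgrounds and detection minimums.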

Additional observations from a re-analysis of the deposited data

How the results depend on the processing

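No paired analysis was possible because there was a single library. The lengths other than the longest protein-coding transcript and the adding of copies were chosen after seeing the data. Of the 10 genes, 3 kept their place in the order in recovered fragments, 5 with the longest protein-coding transcript or with the exons of all protein-coding transcripts, 4 with the transcript of the longest coding sequence and 6 with unshared exon bases. The ratio of the highest to the lowest gene, 10.1, was 11.3 in recovered fragments, 16.2 with the longest protein-coding transcript, 17.8 with the transcript of the longest coding sequence (*Srsf1* over *Srsf4*) and 8.03 with unshared exon bases (*Srsf2* over *Srsf11*). The median stood 29.8 times above that of genes above 0 FPKM, 6.78 times above genes at 1 FPKM or more, 12.5 times above protein-coding genes, 57.2 times in recovered fragments and 12.2 times by longest protein-coding transcript against protein-coding genes. The share of the family went from 0.129% of summed FPKM to 0.227% of the 17113323 recovered fragments. With a minimum of 100 FPKM 1 of the 10 genes was counted, by construction. Leaving the 10 most abundant genes or the mitochondrial genes out of the divisor multiplied every level by 1.10 or 1.02, and TPM by 2.33. The spread between mice is unknown.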
